A study of Mus musculus with 4 samples.

Results

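The genes described here encode the integrins, the ADAM, ADAMTS and ADAMTS-like proteins, the matrix metalloproteinases (MMPs) and the tissue inhibitors of metalloproteinases (TIMPs). They were taken by gene symbol from the deposited table, which lists 65 of them among 15713 genes: 13 integrin alpha chains, 6 integrin beta chains, 12 ADAMs, 15 ADAMTS genes, 5 ADAMTS-like genes, 5 membrane-type MMPs, 6 other MMPs and 3 TIMPs. In the GENCODE vM21 annotation of the mouse 108 genes carry such a symbol, and those outside the 65 are not analysed here. Messenger RNA of the hippocampus was sequenced in 4 libraries from C57BL/6 mice, an inbred strain, aged 11 to 12 weeks. The 2 control libraries came from untreated mice and the 2 ATO libraries from mice exposed during development to ATO at 5000 ppb. The labels do not spell out ATO, and the series title speaks of arsenic and of offspring.

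Integrins are receptors of 1 alpha and 1 beta chain that hold cells to the extracellular matrix and to other cells and connect to actin inside the cell. ADAMs are membrane-anchored proteins, of which some cut the outer part off other membrane proteins (shedding) and some have no protease activity and act as receptors. ADAMTS proteins and MMPs cut matrix proteins, and TIMPs block these proteases. In the hippocampus these families are known for remodelling the matrix around synapses and for the processing of adhesion molecules.

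Of the 65 genes, the protease inhibitor gene Timp3 and the integrin chain gene Itgb8 rose in ATO, and the protease gene Adamts3 fell. Timp3 was 1.54-fold higher, Itgb8 1.32-fold higher and Adamts3 1.62-fold lower, with 2 libraries per group. The other 62 did not pass the test, edgeR's quasi-likelihood test with a Benjamini-Hochberg adjusted p under 0.05 over all genes. The 3 that passed are 4.62% of the 65, against 3.73% of all genes (2.87% higher and 0.859% lower). An unadjusted p under 0.05 was found for 14 of the 65 (21.5%) and for 18.1% of all genes. The median log2 fold change was 0.04 over the 65 genes, with 37 above 0, and -0.00496 over all genes. The share that passed was thus near that of all genes, and no more is read from it.

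**Figure D1:**
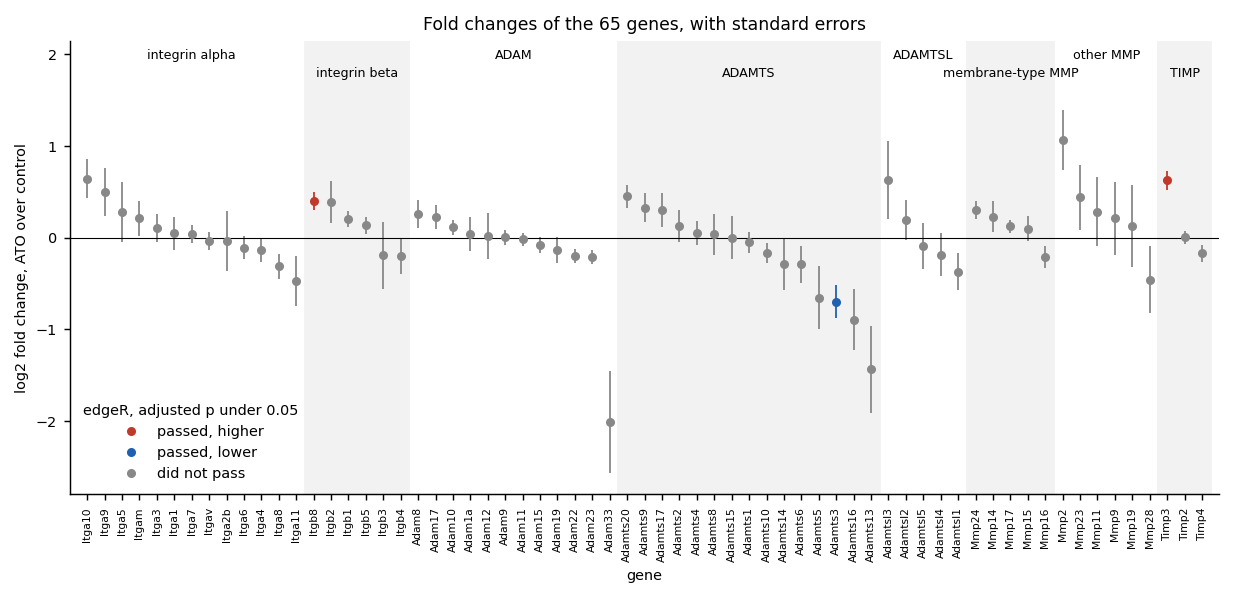
Log2 fold change of ATO over control (vertical axis) for each of the 65 genes, ordered by group, with bars for the standard error. Timp3 (0.63) and Itgb8 (0.40) are the coloured points above 0 and Adamts3 (-0.70) the coloured point below it, while Adam33 has the lowest value (-2.01) and a wide bar.

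Depth was similar in the 4 libraries, with total counts from 14832214 to 17251032, so 1 count stood for between 0.0574 and 0.0678 normalised CPM (counts scaled to a common library size by the TMM method). The ATO libraries also held more RNA of the choroid plexus, the epithelium that makes cerebrospinal fluid. All 20 of its listed markers rose, and their summed level went from 149 and 218 CPM in the controls to 3364 and 4215 CPM in ATO. Ttr (20.4 and 61.8 CPM in control, 2286 and 2873 CPM in ATO) and Enpp2 (86.6 and 115 against 723 and 916 CPM) made up most of these sums. Of these markers only Wfdc2 was at 0 counts in both controls. Of 14 ependymal markers 7 rose and 0 fell (sums of 30.6 and 34.6 against 72.4 and 55.3 CPM), and of 11 CA1 pyramidal neuron markers 0 rose and 3 fell (889 and 876 against 613 and 827 CPM). None of the markers listed for CA1, dentate granule and CA3 or CA2 neurons of the hippocampus was at 0 counts in both controls. In bulk tissue, fewer cells of a type and less RNA per cell cannot be told apart.

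Timp3 encodes the TIMP that binds to the matrix and inhibits MMPs as well as ADAM17 and several ADAMTS proteases. It lies on chromosome 10 from 86300372 to 86349506 (plus strand, GRCm38; ENSMUSG00000020044). It was at 50.8 and 42.4 CPM in control replicates 1 and 2, and at 77.7 and 66.1 CPM in ATO replicates 1 and 2. Both ATO libraries lay above both controls, and the gap between the groups was wider than that between replicates. The means were 46.6 ± 5.91 and 71.9 ± 8.22 CPM (SD, n = 2), which is a log2 fold change of 0.63 ± 0.11 (SE; edgeR adjusted p = 0.00358). The authors' deposited table gave a log2 fold change of 0.62 with an adjusted p of 0.00487. That table marked 0 of the 65 genes as differentially expressed, Timp3, Itgb8 and Adamts3 included, against 153 of all its genes. The authors' adjusted p was under 0.05 for 2 of the 65, Timp3 and Itgb8, and for 518 of all genes. The mark thus did not follow from that threshold alone. The call was lost without control replicate 2, where the log2 fold change was 0.50 and the adjusted p 0.0649.

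Exons of Timp3 overlap those of Syn3, a synapsin gene on the opposite strand, over 1733 bases, and the sources used here do not give a strand setting for the counting. Syn3 had 97 and 87 control counts and 103 and 95 ATO counts, far below the 749 and 641 against 1354 and 1098 of Timp3. Its log2 fold change was -0.09 ± 0.21 with an adjusted p of 0.877. The choroid plexus sums given above were, like Timp3, higher in both ATO libraries than in both controls. Leptomeningeal and fibroblast markers (15 tested, 1 higher and 1 lower, 8 with an unadjusted p under 0.05, median log2 fold change 0.64, none at 0 in both controls) summed to 209 and 165 CPM in control replicates 1 and 2, and to 247 and 180.0 CPM in ATO replicates 1 and 2. The marker that fell, Dcn, was at 57.7 and 65.9 CPM in the controls and 44.3 and 39.6 CPM in ATO, a large share of these sums. The leptomeningeal and fibroblast sums of control and ATO overlapped. The part of these cell types in the Timp3 difference was not tested.

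Itgb8 encodes the integrin beta 8 chain, which pairs with the alpha v chain in a receptor known for activating latent TGF-beta. It lies on chromosome 12 from 119158022 to 119238802 (minus strand; ENSMUSG00000025321). Its levels were 54.5 and 45.2 CPM in the controls and 66.7 and 64.5 CPM in ATO. The groups did not overlap, though the controls were further apart than the ATO libraries. The means were 49.8 ± 6.58 and 65.6 ± 1.54 CPM (SD, n = 2), a log2 fold change of 0.40 ± 0.10 with an edgeR adjusted p of 0.0371, and the authors' deposited table gave 0.40 with 0.0414. It no longer passed without control replicate 2 (0.27, adjusted p = 0.217), without the library of ATO replicate 1 (0.37, adjusted p = 0.0927) and under DESeq2's Wald model (0.39, adjusted p = 0.0793). The choroid plexus sums were also higher in both ATO libraries than in both controls. Of 10 astrocyte markers 1 rose and 0 fell (median log2 fold change 0.0007, range -0.29 to 0.44). An unadjusted p under 0.05 in edgeR was found for 7 of the 10, in both directions, against 18.1% of all genes. Their sums overlapped, at 4588 and 4354 CPM in control and 4372 and 4640 CPM in ATO. The part of these cell types in the Itgb8 difference was not tested.

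Adamts3 encodes a secreted protease known for trimming procollagen and for cutting reelin, a matrix protein of the developing and adult hippocampus. It lies on chromosome 5 from 89677087 to 89883334 (minus strand; ENSMUSG00000043635). It was at 15.9 and 11.6 CPM in the controls and at 8.32 and 8.61 CPM in ATO. The ATO libraries lay close together and below both controls, of which replicate 1 was the higher. The means were 13.7 ± 3.03 and 8.47 ± 0.201 CPM (SD, n = 2), a log2 fold change of -0.70 ± 0.18 with an edgeR adjusted p of 0.0452. The authors' deposited table gave -0.67 with an adjusted p of 0.0524. It no longer passed without control replicate 1 (-0.45, adjusted p = 0.220), without the library of ATO replicate 1 (-0.67, adjusted p = 0.0841), with library size only (adjusted p = 0.0538), with limma-voom (0.0538) and with DESeq2 (0.113). Of 11 CA1 pyramidal neuron markers 0 rose and 3 fell (median log2 fold change -0.37, 0 of 11 at 0 counts in both controls). Their sums were 889 and 876 CPM in control against 613 and 827 CPM in ATO replicates 1 and 2, unlike the close ATO values of Adamts3. Of 7 interneuron markers 0 rose and 0 fell (median -0.26, sums of 802 and 881 CPM in control against 712 and 767 CPM in ATO). The part of these cell types in the Adamts3 difference was not tested. The gene of reelin, Reln, did not pass, at -0.25 ± 0.10 (adjusted p = 0.197).

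**Figure D2:**
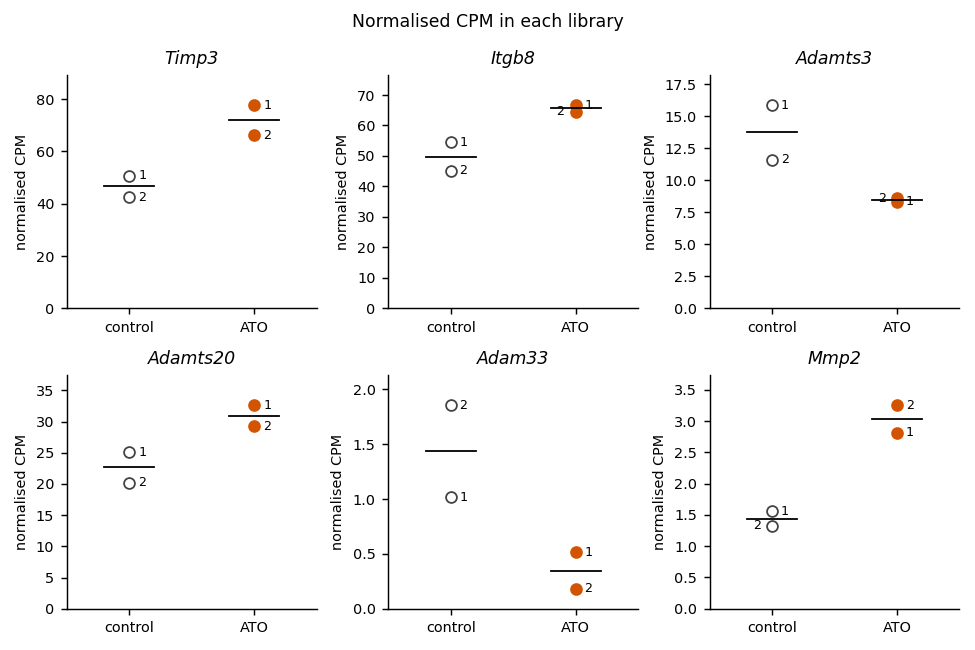
Normalised CPM (vertical axes, from 0) of 6 genes in control (open points) and ATO (filled points), with the replicate number beside each point and a line at the group mean. In all 6 the groups do not overlap, which also holds for 48.1% of all genes. The 6 were picked with their values known, so nothing is read from this count. The largest gap between replicates relative to the level is that of Adam33.

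The bases before the start of Timp3, which rose, and of Adamts3, which fell, are shown because these genes moved in opposite directions; they come from the RefSeq windows of build GRCm38.p6, in which 43 of the 65 symbols were matched. Only bases outside every annotated GENCODE exon were kept. For Itgb8 no base of its RefSeq window was left. Bases were cut from the end nearest the gene, and an annotated exon covered the far end of that window. Letters are 5′ to 3′ on the strand of the gene, and capitals mark a GC box (GGGCGG) or TATA box (TATAAA) on either strand; these motifs do not overlap.
Timp3, chr10:86300162-86300371, plus strand: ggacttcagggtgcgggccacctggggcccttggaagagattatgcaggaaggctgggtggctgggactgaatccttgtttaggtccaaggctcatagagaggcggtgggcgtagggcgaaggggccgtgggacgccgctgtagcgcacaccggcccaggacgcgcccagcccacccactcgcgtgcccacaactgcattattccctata
Adamts3, chr5:89883335-89883584, minus strand: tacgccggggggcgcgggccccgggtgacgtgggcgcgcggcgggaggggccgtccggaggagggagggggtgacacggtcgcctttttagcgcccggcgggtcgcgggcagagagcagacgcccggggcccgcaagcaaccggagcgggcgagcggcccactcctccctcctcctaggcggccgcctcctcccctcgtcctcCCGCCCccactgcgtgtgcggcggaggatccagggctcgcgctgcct
The 210 bases before Timp3 were 63.8% G or C and held 13 CG pairs, 0 GC boxes and 0 TATA boxes. They are what was left of 250 bases, and those nearest the RefSeq start were cut off as exon bases. A motif there or across the cut was therefore not counted. Across all 32851 RefSeq windows trimmed to those positions the median GC share was 51.9%, 26.7% held a GC box and 9.56% a TATA box. The 250 bases before Adamts3 were 78.0% G or C and held 35 CG pairs, 1 GC box and 0 TATA boxes, and 97% of all windows of that length held fewer CG pairs. Of those windows 32.7% held a GC box and 12.4% a TATA box. A match or its absence describes these letters only.

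Among the 6 integrin beta chains Itgb8 rose, 0 fell and 5 did not pass. Levels per transcript length, as the authors' deposited FPKM averaged over the 4 libraries, were highest for Itgb1 (13.7 FPKM), the chain that pairs with most alpha chains, then Itgb5 (10.6), Itgb8 (5.21), Itgb2 (1.62), Itgb4 (1.00) and Itgb3 (0.34). Itgb1 was at 52.6 and 51.6 CPM in the controls and 58.6 and 61.6 CPM in ATO. Its groups did not overlap, but its log2 fold change of 0.21 ± 0.08 did not pass (adjusted p = 0.213). Itgb5, another partner of alpha v, was at 0.13 ± 0.10 and Itgb2, the beta chain of leukocyte integrins, at 0.39 ± 0.23. Itgb4, a chain of hemidesmosomes, was at -0.20 ± 0.20 and Itgb3, the platelet and vascular chain, at -0.19 ± 0.36. The 12 microglia markers, which label the main Itgb2-expressing cells of the brain, had a median of 0.04 and 0 passed. Their sums were 467 and 437 CPM in control and 430 and 491 in ATO, none was at 0 in both controls, and their part in the Itgb2 values was not tested. Of 9 border macrophage and antigen presentation markers 1 rose and 0 fell, with a median of 1.14. All 9 had positive log2 fold changes (lowest 0.41), none was at 0 in both controls, and their sums were 18.2 and 8.48 CPM in control against 38.4 and 21.4 CPM in ATO. Their part in the Itgb2 values was not tested either.

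None of the 13 integrin alpha chains passed in edgeR, limma-voom or DESeq2, and 2 had an unadjusted p under 0.05 in edgeR. The highest levels per length were those of Itga7 (5.08 FPKM), a laminin receptor chain, Itgav (4.17), the partner of Itgb8, Itga8 (3.81), a receptor chain for nephronectin, and Itga6 (2.78), another laminin receptor chain. Itgav stood at 48.4 and 42.6 CPM in the controls and 45.1 and 43.6 CPM in ATO. These groups overlapped, with a log2 fold change of -0.04 ± 0.10, and Itgav did not pass (adjusted p = 0.889). Itga8 was at 35.4 and 27.0 CPM in the controls and 27.7 and 22.6 CPM in ATO. Its log2 fold change was -0.31 ± 0.14 (unadjusted p = 0.0393, adjusted p = 0.249), and the groups overlapped.

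Itga10, a collagen receptor chain, had the smallest p of the alpha chains. It was at 5.16 and 4.17 CPM in the controls and at 7.29 and 7.28 CPM in ATO. The groups did not overlap, and its log2 fold change of 0.64 ± 0.21 did not pass (adjusted p = 0.117). Itga9, a chain that binds tenascin C, was at 0.50 ± 0.26 and Itga11, a collagen receptor chain, at -0.47 ± 0.27. In Itga11 control replicate 1 (6.78 CPM) stood apart from the other 3 libraries (3.79 to 3.97 CPM). The laminin receptor chain Itga3 was at 0.10 ± 0.15, Itga4, the chain that binds VCAM1, at -0.13 ± 0.13, and Itga6 at -0.11 ± 0.12. Itgam, the alpha chain of microglia and myeloid cells, was at 0.22 ± 0.19. The collagen receptor chain Itga1, the fibronectin receptor chain Itga5, the platelet chain Itga2b and Itga7 lay between -0.04 and 0.28.

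**Figure D3:**
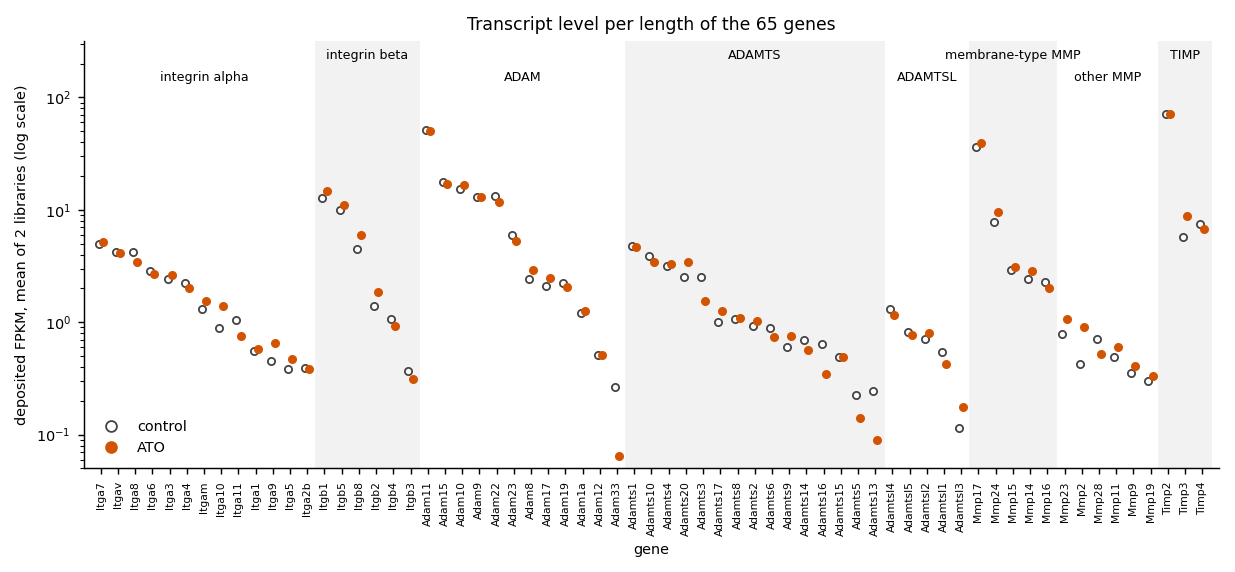
Deposited FPKM (vertical axis, log scale), the mean of 2 libraries per group, for each of the 65 genes ordered by level within its group. Timp2 (70.9 FPKM over the 4 libraries), Adam11 (51.0) and Mmp17 (37.7) have the highest levels, and Adamtsl3 (0.145) has the lowest.

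None of the 12 ADAM genes passed in edgeR, limma-voom or DESeq2, and 3 had an unadjusted p under 0.05 in edgeR. The level per length was highest for Adam11 (51.0 FPKM), Adam15 (17.4), Adam10 (16.1), Adam9 (13.02) and Adam22 (12.6). Adam11, Adam22 and Adam23 encode neuronal ADAMs without protease activity, and ADAM22 and ADAM23 are receptors of the secreted LGI proteins at the synapse. Adam22 was at 200.2 and 187 CPM in the controls and 173 and 164 CPM in ATO. Adam23 was at 111 and 105 CPM in the controls and 95.2 and 92.1 CPM in ATO. In these 2 genes both ATO libraries lay below both controls. Their log2 fold changes of -0.20 ± 0.08 and -0.21 ± 0.08 did not pass (adjusted p = 0.173 and 0.168), and Adam22 passed with the replicate number as a block (adjusted p = 0.0486). Adam11 was at -0.02 ± 0.07, with overlapping groups.

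Adam10 and Adam17 encode the best-known proteases that shed membrane proteins. Adam10, whose product cuts the amyloid precursor protein and Notch, was at 77.1 and 75.0 CPM in the controls and 79.9 and 84.9 CPM in ATO. Adam17, whose product releases TNF, was at 15.3 and 15.2 CPM in the controls and 17.5 and 18.2 CPM in ATO. Neither gene's groups overlapped, and the log2 fold changes were 0.12 ± 0.08 (adjusted p = 0.485) and 0.23 ± 0.13 (adjusted p = 0.383). Exons of Adam17 overlap those of Iah1 on the opposite strand over 311 bases, and Iah1 was at -0.38 ± 0.18 (adjusted p = 0.298). Adam8, a protease of myeloid and other cells, was at 0.26 ± 0.15, while Adam9 (0.00 ± 0.08), Adam15 (-0.08 ± 0.09), Adam19 (-0.13 ± 0.14), Adam12 (0.02 ± 0.25) and Adam1a (0.05 ± 0.18) had overlapping groups.

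Adam33, a protease gene of mesenchymal cells, had the largest difference of the 65 genes and one of the lowest levels. It had 15 and 28 counts in control and 9 and 3 counts in ATO, or 1.02 and 1.85 against 0.517 and 0.181 CPM. Both ATO libraries lay below both controls, with a wide gap within each group. The ratio of summed counts, scaled by depth, was 0.245 with an exact binomial 95% interval from 0.117 to 0.472, which covers counting error only. The log2 fold change of -2.01 ± 0.56 did not pass (adjusted p = 0.0619). It passed without ATO replicate 1 (-2.94, adjusted p = 0.0234) and with the replicate block (-1.99, adjusted p = 0.0237).

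Of the 15 ADAMTS genes 1 fell, Adamts3, and 0 rose. The highest levels per length were those of Adamts1 (4.75 FPKM), Adamts10 (3.68), Adamts4 (3.25) and Adamts20 (2.97). Adamts1 and Adamts4 encode proteases that cut aggrecan-like proteoglycans, and they were at -0.05 ± 0.11 and 0.06 ± 0.13. Adamts20, known for its role in melanoblast migration, was at 25.1 and 20.2 CPM in the controls and at 32.6 and 29.3 CPM in ATO. Its groups did not overlap, and its log2 fold change of 0.45 ± 0.12 did not pass (adjusted p = 0.0579). It passed without control replicate 1 (0.62, adjusted p = 0.0330), without the library of ATO replicate 2 (0.53, adjusted p = 0.0257) and with the replicate block (0.45, adjusted p = 0.00729).

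Adamts13, whose product cuts von Willebrand factor, had 18 counts in each control against 7 and 8 in ATO. The ratio scaled by depth was 0.365 (exact binomial 95% interval 0.186 to 0.684), and the log2 fold change of -1.44 ± 0.48 did not pass (adjusted p = 0.120). Adamts16 was at 2.85 and 5.89 CPM in the controls and 2.24 and 2.47 CPM in ATO. Its difference rested on control replicate 2, as the log2 fold change of -0.89 ± 0.33 (adjusted p = 0.170) became -0.28 without that library and -1.32 without control replicate 1 (adjusted p = 0.0386). Adamts5, the other major aggrecan protease, was at -0.65 ± 0.35, Adamts9, a versican protease, at 0.33 ± 0.16 and Adamts17 at 0.30 ± 0.19. The procollagen proteases Adamts2 and Adamts14, the nearest relatives of Adamts3, were at 0.13 ± 0.17 and -0.29 ± 0.28, and their groups overlapped. Adamts6 (-0.29 ± 0.20), Adamts8 (0.04 ± 0.22), Adamts10 (-0.17 ± 0.11) and Adamts15 (0.00 ± 0.24) did not pass.

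ADAMTS-like genes encode matrix proteins related to ADAMTS but with no protease domain. None of the 5 passed in edgeR, limma-voom or DESeq2, and 0 had an unadjusted p under 0.05 in edgeR. Their levels were low, from 0.145 FPKM for Adamtsl3 to 1.23 FPKM for Adamtsl4. The groups did not overlap for Adamtsl1 (-0.37 ± 0.20, adjusted p = 0.358) and Adamtsl3 (0.63 ± 0.42, adjusted p = 0.475). Adamtsl2, Adamtsl4 and Adamtsl5 were at 0.19 ± 0.22, -0.18 ± 0.23 and -0.09 ± 0.25.

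None of the 5 membrane-type MMPs, which sit in the cell membrane, passed in edgeR, limma-voom or DESeq2, and 1 had an unadjusted p under 0.05 in edgeR. Mmp17 was by far the most abundant MMP gene (37.7 FPKM), followed by Mmp24 (8.71), whose product is a neuronal protease that cuts N-cadherin. Mmp17 was at 243 and 235 CPM in the controls and 262 and 259 CPM in ATO. Mmp24 was at 35.7 and 37.6 CPM in the controls and 42.3 and 48.0 CPM in ATO. In both genes the groups did not overlap, with log2 fold changes of 0.13 ± 0.07 (adjusted p = 0.386) and 0.30 ± 0.10 (adjusted p = 0.119), and Mmp24 passed with the replicate block (adjusted p = 0.0392). Exons of Mmp24 overlap those of BC029722 on the opposite strand over 637 bases, and that gene was at -0.14 ± 0.08 (adjusted p = 0.414). Mmp14, the activator of MMP2, was at 0.23 ± 0.17, Mmp15 at 0.10 ± 0.13 and Mmp16 at -0.21 ± 0.12.

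All 6 other MMPs were near the lower end of the table, from 0.318 to 0.927 FPKM, and 0 passed in edgeR, limma-voom or DESeq2, with 1 unadjusted p under 0.05 in edgeR. Mmp2, the gelatinase of vascular and mesenchymal cells, had 23 and 20 counts in control and 49 and 54 counts in ATO. The groups did not overlap, and the ratio scaled by depth was 2.10 with an exact binomial 95% interval from 1.46 to 3.07. The log2 fold change of 1.07 ± 0.32 did not pass (adjusted p = 0.0856), and passed with the replicate block (adjusted p = 0.0480). Mmp9, the other gelatinase and a protease of synaptic plasticity, was at 1.22 and 1.26 CPM in the controls and 1.78 and 1.08 CPM in ATO. Its groups overlapped, with a log2 fold change of 0.21 ± 0.40. Mmp23 (0.44 ± 0.35), Mmp28 (-0.46 ± 0.36), Mmp11 (0.29 ± 0.38) and Mmp19 (0.13 ± 0.44) had overlapping groups too. The choroid plexus, ependymal and leptomeningeal sums given above were higher in the ATO mean for the same libraries, and their part in the Mmp2 values was not tested.

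Among the 3 TIMPs Timp3 rose and the other 2 did not pass. Timp2, the inhibitor that also helps to activate MMP2, had the highest level per length of the 65 genes (70.9 FPKM). It was at 269.6 and 283 CPM in the controls and 282 and 273 CPM in ATO, so its groups overlapped around a log2 fold change of 0.00 ± 0.07. Timp4 was at 45.4 and 43.8 CPM in the controls and 40.2 and 39.2 CPM in ATO. Its groups did not overlap, in the direction opposite to Timp3, and its log2 fold change of -0.17 ± 0.09 did not pass (adjusted p = 0.358).

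Counted over the 65 genes, both ATO libraries lay above both controls for 19 and below both for 14, together 50.8%, against 48.1% of all genes (24.8% above and 23.4% below). By group the count was 5 of 6 for the integrin beta chains, 9 of 15 for ADAMTS, 6 of 12 for ADAM, 5 of 13 for the integrin alpha chains and 1 of 6 for the other MMPs. Differences of more than 1.5-fold were found in 9 of the 65 (13.8%), against 7.37% of all genes. These were Timp3, Adamts3, Adam33, Adamts13, Adamts16, Adamts5, Itga10, Adamtsl3 and Mmp2, and 7 of them did not pass. Of the 65 genes 20 had a mean under 5 CPM, where fold changes are less precise. Adam33, Adamts13, Adamts16, Adamts5, Adamtsl3 and Mmp2 are among these 20, so no more is read from the share over 1.5-fold.

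**Figure D4:**
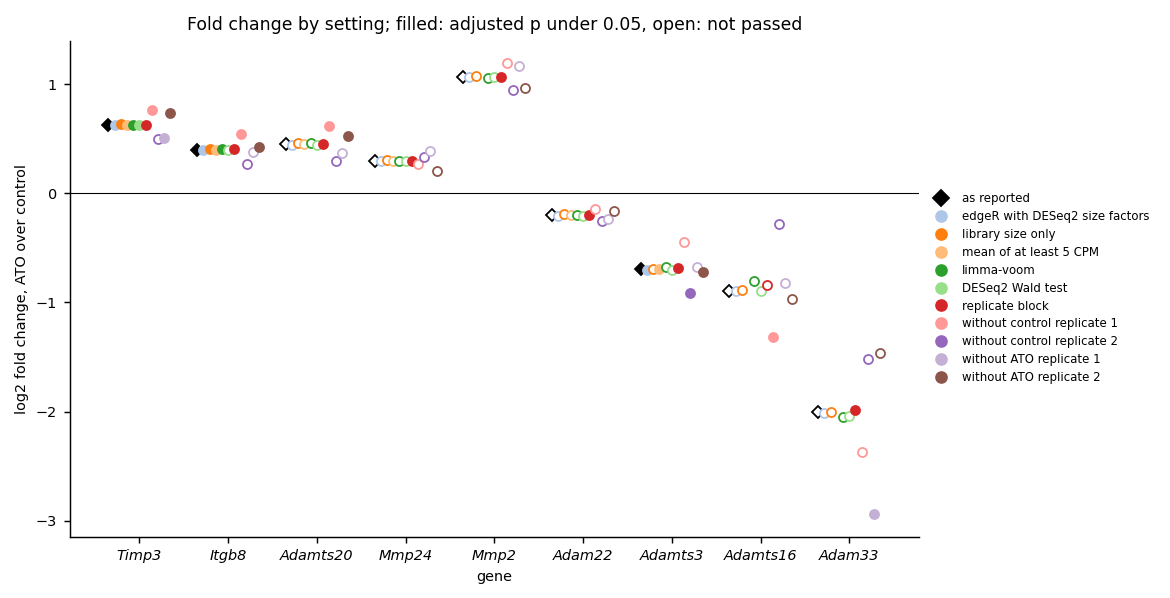
Log2 fold change of ATO over control (vertical axis) for the 9 genes that passed in the reported fit or in an alternative, with a black diamond for the reported fit, a circle for each alternative other than the fit with no filter, which equals the reported one, and filled marks where the adjusted p was under 0.05. All marks of a gene lie on the same side of 0, while Timp3 lost its call without control replicate 2 and Adamts16 and Adam33 moved most when 1 library was left out.

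Partner genes of these families were taken from 5 lists. Of 125 genes tested, each counted once, 6 rose and 4 fell (8% passed, against 3.73% of all genes), with a median log2 fold change of 0.03. The lists were chosen with earlier results of these data known, so nothing is read from the difference between these shares. The same holds for the shares with an unadjusted p under 0.05 given below for each list. Of 30 cytoplasmic partners of integrins 1 rose and 1 fell (median 0.08). Tns3, the gene of an adaptor that links integrin tails to actin, rose from 77.3 and 68.2 CPM to 103 and 102 CPM (0.49 ± 0.08, adjusted p = 0.00397). Flna, the gene of the actin crosslinker filamin A, which binds beta tails, fell from 120.1 and 124 CPM to 92.7 and 88.2 CPM (-0.43 ± 0.08, adjusted p = 0.00544). Talin 1 (Tln1, 0.07 ± 0.09) and focal adhesion kinase (Ptk2, -0.07 ± 0.08) did not pass. An unadjusted p under 0.05 in edgeR was found for 10 of the 30, against 18.1% of all genes. All of these 10 except Flna were higher in ATO. Parva (0.27 ± 0.08, adjusted p = 0.0715), Vcl (0.42 ± 0.12, adjusted p = 0.0749) and Kank2 (0.48 ± 0.15, adjusted p = 0.0942) were among them and did not pass.

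Of 26 integrin ligands outside the collagens and laminins 2 rose and 0 fell (median 0.24). An unadjusted p under 0.05 in edgeR was found for 9 of the 26, against 18.1% of all genes. Vcam1, the gene of an adhesion molecule bound by integrins with the alpha 4 chain, rose from 23.3 and 20.3 CPM to 36.9 and 40.2 CPM (0.82 ± 0.11, adjusted p = 0.000549). Endothelial markers, a class of cells known for Vcam1, had a median of 0.01 with 0 of 14 higher and 1 lower. All 20 choroid plexus markers rose in the same libraries, and the border macrophage and antigen presentation markers had a median of 1.14. The part of these cell types in the Vcam1 rise was not tested. Npnt, the gene of nephronectin, the ligand of the alpha 8 chain, rose from 31.8 and 26.4 CPM to 40.7 and 37.7 CPM (0.43 ± 0.11, adjusted p = 0.0460), and it no longer passed without control replicate 2 (0.30, adjusted p = 0.261), without the library of ATO replicate 1 (0.37, adjusted p = 0.194), under DESeq2 (adjusted p = 0.130) and with library size only (adjusted p = 0.0511). The receptor chains of these ligands, Itga4 and Itga8, were at -0.13 and -0.31 and did not pass. The latent TGF-beta gene Tgfb1, a cargo of the alpha v beta 8 receptor, was at 0.27 ± 0.20 (adjusted p = 0.522), and Fn1, the gene of fibronectin, at -0.26 ± 0.08 (adjusted p = 0.109). Dentate granule neuron markers, of which Npnt is 1, had a median of 0.30 with 2 of 11 higher and 0 lower (sums of 759 and 650 CPM in control, 880.0 and 787 CPM in ATO, none at 0 in both controls), and their part was not tested.

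Among 24 regulators of ADAMs and MMPs 3 rose and 0 fell (median -0.01). An unadjusted p under 0.05 in edgeR was found for 7 of the 24, against 18.1% of all genes. A2m, the gene of the broad protease inhibitor alpha-2-macroglobulin, rose from 2.37 and 2.12 CPM to 7.41 and 5.72 CPM (1.55 ± 0.26, adjusted p = 0.00339). Plat, the gene of tissue plasminogen activator, rose from 34.7 and 36.5 CPM to 51.4 and 61.3 CPM (0.66 ± 0.10, adjusted p = 0.00182). Tspan33, which encodes a tetraspanin that steers ADAM10, rose from 30.9 and 33.0 CPM to 42.5 and 43.0 CPM (0.42 ± 0.10, adjusted p = 0.0276), and its call was lost when any 1 of the 4 libraries was left out (adjusted p from 0.0717 to 0.0833) and under DESeq2 (0.0842). A2m no longer passed without control replicate 2 (1.46, adjusted p = 0.0502). Choroid plexus markers rose in the same ATO libraries, and their part in these regulators was not tested. The membrane inhibitor gene Reck was at -0.30 ± 0.16 (adjusted p = 0.366).

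Of 28 substrates and binding partners of ADAMs 0 rose and 1 fell (median -0.02). An unadjusted p under 0.05 in edgeR was found for 2 of the 28, against 18.1% of all genes. Lgi2, a ligand gene of the ADAM22 family, fell from 44.4 and 52.4 CPM to 36.5 and 35.6 CPM (-0.43 ± 0.10, adjusted p = 0.0334). Lgi2 no longer passed without control replicate 2 (-0.31, adjusted p = 0.206), without the library of ATO replicate 1 (0.0503), without ATO replicate 2 (0.0699) and under DESeq2 (0.0712). Its relatives Lgi1 (-0.01 ± 0.07), Lgi3 (0.03 ± 0.08) and Lgi4 (0.04 ± 0.17) did not pass. Of 21 substrates of ADAMTS proteases and MMPs 0 rose and 2 fell (median -0.04). Their log2 fold changes ran from -0.56 to 0.79. An unadjusted p under 0.05 in edgeR was found for 13 of the 21, against 18.1% of all genes. Bgn (0.61 ± 0.16, adjusted p = 0.0538) and Fbn2 (-0.54 ± 0.18, adjusted p = 0.121) were among these and did not pass. Agrn, the gene of the heparan sulfate proteoglycan agrin, fell from 249.6 and 270.1 CPM to 198 and 203 CPM (-0.38 ± 0.08, adjusted p = 0.0132). Dcn, the gene of the small proteoglycan decorin, fell from 57.7 and 65.9 CPM to 44.3 and 39.6 CPM (-0.56 ± 0.10, adjusted p = 0.00488). Dcn is also 1 of the 15 leptomeningeal and fibroblast markers and the only one that fell, while their median was 0.64, and the part of these cells in its value was not tested. Without control replicate 2 the calls of Agrn (adjusted p = 0.0736) and Dcn (0.0649) were lost, and that of Agrn also without ATO replicate 1 (0.0778). The large proteoglycans cut by ADAMTS4 and ADAMTS5 did not pass, with Acan at -0.52 ± 0.24, Bcan at -0.14 ± 0.08, Ncan at 0.00 ± 0.07 and Vcan at -0.10 ± 0.14.

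**Figure D5:**
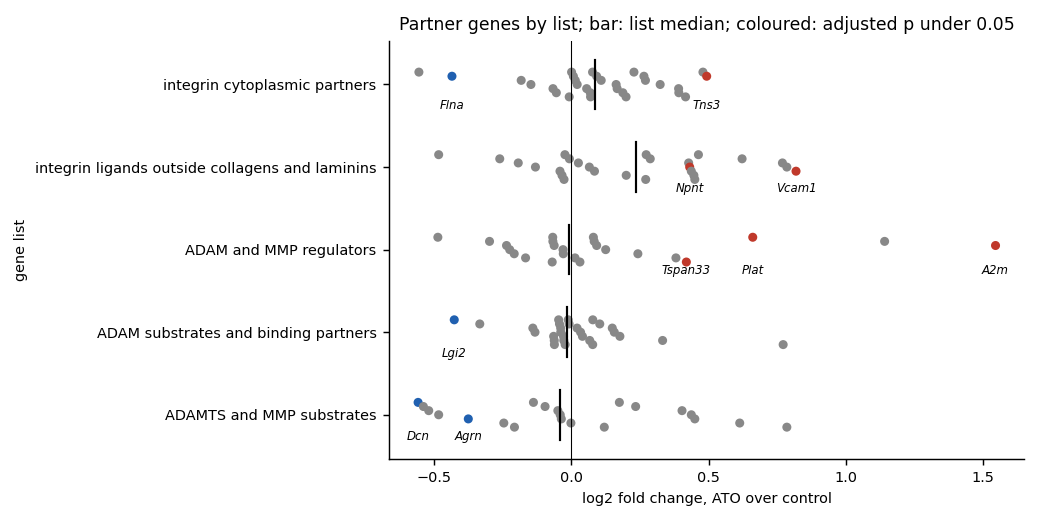
Log2 fold change of ATO over control (horizontal axis) for the partner genes in each of the 5 lists (vertical axis), 1 point per gene, with a bar at the list median and the genes that passed coloured and named. A2m (1.55) lies furthest to the right and Vcam1 (0.82) is the highest of the ligands, while the list medians stay between -0.04 and 0.24.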

How the data were processed

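Per the labels' protocols, hippocampal RNA was isolated by kit, and its messenger RNA went into Illumina TruSeq libraries. The submitters' processing notes name HISAT2 2.0.1 and HTSeq 0.6.1 beside cutadapt 1.9.1, FastQC 0.10.1, limma 3.47.15 in R 4.1.0, and the build GRCm38, with no role, setting or strand option given. The deposited table holds, per the file headers, counts of reads per gene and FPKM values for each library. It also holds the authors' log2 fold change, and, per the file headers, an adjusted and an unadjusted p-value of the authors. In all 15713 genes at least 2 libraries exceeded 1 CPM, and lower genes are not analysed here.

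The test was run on the counts in R 4.3.3 with edgeR 4.0.16 (TMM, filterByExpr with 0 genes removed, quasi-likelihood test, no covariate), over all genes. The SE is the log2 fold change divided by the square root of F, and normalised CPM use TMM-scaled library sizes. The deposited FPKM served only to compare levels between genes; the ratio of count to FPKM between libraries was the same for all well-measured genes within 0.131% (5th to 95th percentile). Alternatives used limma 3.58.1 and DESeq2 1.42.0. Replicates differed by more than sampling noise (chi-square per degree of freedom 7.33 in control, 5.35 in ATO). Nothing in the labels says that they come from separate animals or litters, and the p-values cover only sample-to-sample spread, which may be technical. Positions came from GENCODE vM21. Of the 65 genes, 16 overlap another tested gene and 12 share exon bases with it. Named are all members, and of the partner lists the genes that passed, with a few others chosen after their values were seen. The members and lists were chosen with earlier results of these data known.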

Additional observations from a re-analysis of the deposited data

How the results depend on the processing

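None of the 11 alternatives changed the sign of Timp3, Itgb8 or Adamts3. Of the 65 genes 9 passed in the reported fit or in at least 1 of these alternatives, and 56 in none. The sign changed in some alternative for 25 genes, all with an absolute log2 fold change of at most 0.457. With the replicate number as a block 5 members were higher and 3 lower, 890 of all genes higher and 476 lower, and 14 partner genes higher and 7 lower; the numbers are not known to pair the samples (correlation of deviations 0.120 for the same numbers, with only 2 pairs). DESeq2's Wald test gave 1 member higher and 0 lower, with 252 of all genes higher and 64 lower. Library size only and limma-voom gave 0 members lower. Leaving out each library gave 0 to 3 members higher and 1 lower each time, 180 to 443 of all genes higher and 42 to 168 lower, and 3 to 10 partner genes higher and 1 to 4 lower. The lowest counts higher came without control replicate 2. In fits that leave out a library, the lone library of its group is assumed to vary like the other group. A filter at a mean of 5 CPM gave no value for the 20 members below it. Their low counts limit precision. In counts simulated for the 15713 genes, with no separate figure for low counts, 71.6% of 1.5-fold, 85.1% of 2-fold and all of 4-fold changes were recovered, and 12 of 183 calls were false.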

Other observations

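The 2 libraries of a group differed by more than 1.5-fold for 7 of the 65 genes in control and 5 in ATO, against 7.59% and 6.25% of all genes. The median ratio of the higher to the lower library was 1.12 in control and 1.10 in ATO for the 65 genes, close to 1.11 and 1.09 for all genes. The matrix metalloproteinase gene Mmp28, known from epithelial repair, had the widest gap in control, at 3.80 and 1.79 CPM, a ratio of 2.12. Adam33 had the widest in ATO, with a ratio of 2.86 on 9 and 3 counts, and Adamts16 had a ratio of 2.07 in control. Itgb3 also differed between the controls, at 2.78 and 1.52 CPM.

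The proteoglycan protease genes Adamts1 (chromosome 16 from 85793827 to 85803113) and Adamts5 (chromosome 16 from 85856173 to 85901828), both on the minus strand, had log2 fold changes of -0.05 ± 0.11 and -0.65 ± 0.35. The neighbours Adamts8 and Adamts15 on chromosome 9 were at 0.04 ± 0.22 and 0.00 ± 0.24. None of these 4 passed in the reported fit or in any alternative, and the difference between neighbours was not tested.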
